A study of Mus musculus with 10 samples.

Results

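H3K4me1, the monomethyl mark on lysine 4 of histone H3, was mapped by ChIP-seq (chromatin immunoprecipitation with sequencing) in sorted mouse neutrophils with and without the long non-coding RNA Morrbid. The peaks described here are all 81980 rows of the H3K4me1 consensus table, out of 246468 consensus peaks in the tables of 4 marks. By the annotation deposited with each peak, 36875 lie in introns, 36104 are intergenic and 4057 lie at promoters. The remaining peaks are in exons (2109), at transcription termination sites (1249), in 3' untranslated regions (822), in 5' untranslated regions (546) or in non-coding transcripts (218). One library came from wild-type C57BL6 mice (WT) and 1 from mice deficient in Morrbid on the C57BL6 background (KO). Both were prepared from neutrophils taken ex vivo and not cultured, with the same rabbit polyclonal antibody to monomethylated H3K4. The labels give neither the age or sex of the mice, nor the number of mice behind a library, nor the design of the Morrbid allele.

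Monomethylation of H3K4 is deposited mainly by the KMT2C and KMT2D methyltransferases and covers primed and active enhancers, in introns and between genes. At active promoters it tends to flank the start site, where trimethylated H3K4 prevails. In myeloid cells the factors PU.1 and C/EBP open many of these enhancers, and neutrophils are short-lived cells whose survival is limited by the pro-apoptotic protein Bim, the product of Bcl2l11. Morrbid lies on the same chromosome as Bcl2l11, and the deposited tables name it Gm14005.

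The starts of these genes are shown first because the results turn on their surroundings and on promoter peaks. Each line is the RefSeq sequence from 250 bases before to 50 bases after a gene start, on GRCm38.p6, which is not the mm9 build of the peaks. Every CG dinucleotide is in capitals. Bcl2l11 is the gene whose flank is described below, with 2 starts on the plus strand at chr2:128125788-128126087 and chr2:128127325-128127624, and Morrbid is on the minus strand at chr2:128429302-128429601. Gipc3 (minus strand, chr10:81343310-81343609) had the lowest ratio among strong promoter peaks, and Atp5o (minus strand, chr16:91931581-91931880) had the highest but 1.
Bcl2l11 first start: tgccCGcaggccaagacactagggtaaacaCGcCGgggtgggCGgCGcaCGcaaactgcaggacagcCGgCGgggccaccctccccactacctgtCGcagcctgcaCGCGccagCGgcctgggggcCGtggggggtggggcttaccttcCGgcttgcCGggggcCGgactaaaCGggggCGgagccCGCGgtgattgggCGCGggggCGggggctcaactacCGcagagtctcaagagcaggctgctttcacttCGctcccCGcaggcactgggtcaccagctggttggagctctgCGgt
Bcl2l11 second start: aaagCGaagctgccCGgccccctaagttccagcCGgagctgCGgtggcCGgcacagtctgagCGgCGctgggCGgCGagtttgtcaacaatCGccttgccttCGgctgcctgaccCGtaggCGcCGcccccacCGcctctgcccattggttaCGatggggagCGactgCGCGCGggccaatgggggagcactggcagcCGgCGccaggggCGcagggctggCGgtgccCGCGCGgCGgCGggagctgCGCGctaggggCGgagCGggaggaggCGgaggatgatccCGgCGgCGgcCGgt
Morrbid: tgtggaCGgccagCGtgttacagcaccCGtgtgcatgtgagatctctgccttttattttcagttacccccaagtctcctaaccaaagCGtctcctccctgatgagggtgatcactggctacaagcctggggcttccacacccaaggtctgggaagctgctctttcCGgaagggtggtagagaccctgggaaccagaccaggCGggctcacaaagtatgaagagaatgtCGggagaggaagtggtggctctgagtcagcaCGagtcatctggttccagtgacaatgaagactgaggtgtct
Gipc3: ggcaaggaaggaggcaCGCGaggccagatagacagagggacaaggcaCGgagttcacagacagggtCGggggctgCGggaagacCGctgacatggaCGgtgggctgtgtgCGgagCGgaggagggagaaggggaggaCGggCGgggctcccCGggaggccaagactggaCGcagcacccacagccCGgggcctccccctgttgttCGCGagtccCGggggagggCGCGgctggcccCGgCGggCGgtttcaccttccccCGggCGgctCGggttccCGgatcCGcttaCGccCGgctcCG
Atp5o: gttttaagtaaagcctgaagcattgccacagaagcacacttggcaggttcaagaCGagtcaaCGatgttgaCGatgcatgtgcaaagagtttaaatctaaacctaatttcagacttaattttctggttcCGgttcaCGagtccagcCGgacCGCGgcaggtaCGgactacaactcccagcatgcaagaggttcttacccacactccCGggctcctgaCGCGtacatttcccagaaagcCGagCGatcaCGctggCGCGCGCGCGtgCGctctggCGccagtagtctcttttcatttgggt
The Bcl2l11 windows hold 27 and 38 CG dinucleotides, Gipc3 30 and Atp5o 22, while Morrbid holds 8. Of all 32851 mouse windows of this length, 51.4% hold fewer than Morrbid and 84.5% fewer than the first Bcl2l11 start. The PU.1 core letters GAGGAA, searched on both strands, occur in 28.3% of all windows and, among these 5, in that of Morrbid. The letters TTGCNNAA, paired C/EBP half-sites, occur in 10.8% of windows and in none of the 5. A match is a description of letters and not a bound site.

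The deposited value of a peak is a normalized read signal. It steps in whole reads, so that 1 read is worth 3.40 units in the WT library and 0.592 units in the KO library. The WT library holds 2438593 reads in peaks, a median of 10 per peak, and the KO library 14317664 reads, a median of 63 per peak. The WT reads therefore limit the precision of nearly every ratio below. The change of a peak is log2 of KO + 1 over WT + 1, less the median of that value over all H3K4me1 peaks (0.0073). Peaks whose mean signal over both libraries is at least 100 units, 21192 or 25.9% of all, are called strong, and they hold 78.9% of the WT and 78.2% of the KO signal. Because the mean is taken over both, a peak below 100 units in 1 library can pass through the other. With 1 library for each genotype there is no replicate check and no p-value. Ranges in parentheses after a change are exact (Clopper-Pearson) 95% intervals on the reads, without the pseudocount, and they cover counting error between these libraries only.

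Intron peaks carried the largest part of the mark and were close to level between the genotypes. The 11310 strong intron peaks had a median signal of 202 WT units and 204 KO units, or 42.4 and 43.1 units per kb of peak. Their median change was 0.02, with quartiles of -0.12 and 0.15, and 53.0% of them were above 0, against 52.3% of all strong peaks. Intergenic peaks gave nearly the same picture. Their 7190 strong members had medians of 200.4 WT units and 205 KO units, a median change of 0.02 and quartiles of -0.12 and 0.16, and 54.0% were above 0. Promoter peaks were set slightly the other way. The 1252 strong promoter peaks had a median of 160 WT units and 153 KO units, or 40.4 and 38.4 units per kb, and a median change of -0.05 with quartiles of -0.21 and 0.11. Of them 41.8% were above 0. The promoter median was -0.02 for peaks with a mean of at least 200, and -0.08 when the KO reads were thinned to the WT total. The part of unequal depth in this offset was not tested beyond these values.

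Few strong peaks of any class differed by 2-fold. Over all strong peaks 0.033% were at least 2-fold higher in the KO and 0.0378% at least 2-fold lower, which is 7 and 8 peaks. Intron peaks gave 2 of the higher and 5 of the lower ones, intergenic peaks gave 5 and 3, and promoter peaks gave 0 and 0. Of the 5 lower intron peaks, 4 belong to the run of peaks around Gm14005 described below. With the KO reads thinned to the WT total, intron peaks gave 11 and 26, intergenic peaks 7 and 18, and promoter peaks 0 and 4. At 1.5-fold, 1.23% of strong peaks were higher and 0.717% lower. The shares were 1.29% and 0.681% for intron peaks, 1.34% and 0.570% for intergenic peaks, and 0.559% and 1.52% for promoter peaks. The spread of changes was close to what counting gives: for peaks with a mean of 200 to 500 units, the middle 50% of changes spanned 0.26, against 0.23 from the reads alone. For peaks of at least 500 units these spans were 0.15 and 0.14. The 20 chromosomes other than Y had medians for strong peaks between -0.01 and 0.03, and the X chromosome had 0.01.

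**Figure D1:**
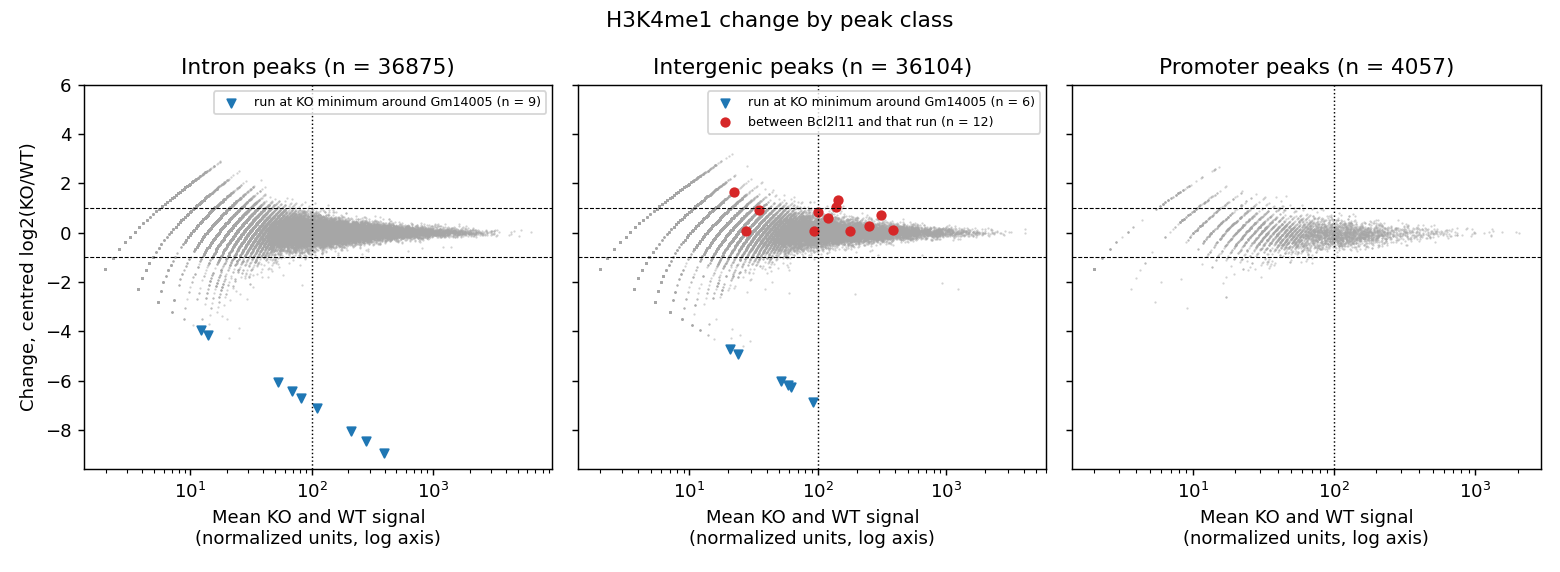
Change of every intron, intergenic and promoter peak, as centred log2(KO/WT), against its mean signal on a log axis. Dashed lines mark 2-fold and the dotted line marks a mean of 100 units. Grey points are single peaks, triangles the 15 peaks at the KO minimum around Gm14005 (9 intron, 6 intergenic) and red circles the 12 intergenic peaks between Bcl2l11 and that run, all of which lie above 0.

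A run of peaks around Gm14005 separated the libraries as labelled. Its limits were read from the KO values, since the labels do not give the design of the allele. On chromosome 2 (mm9), 15 consecutive H3K4me1 peaks from 128074258 to 128253403 were at the KO minimum of 1 read, and the same peaks held 7 to 232 reads in the WT library. Their summed signal was 3051 WT units and 8.88 KO units. The strongest was an intron peak of the Gm14005 transcript NR_028591 at 128244504 to 128253403. It had 788 WT units, 444-fold the value of 3 KO reads, and the upper limit of its interval was a change of -7.89. Such folds leave out the counting error of the WT reads, which the interval limits include. The intron peak at 128162494 to 128168868 had 557 WT units, 314-fold the value of 3 KO reads, with an upper limit of -7.39. That at 128238246 to 128243283 had 418 WT units, 235-fold that value, with an upper limit of -6.97. Elsewhere in the genome 34 peaks with at least 5 WT reads were at the KO minimum, and no more than 2 of them followed each other.

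Between Bcl2l11 and this run, every H3K4me1 peak was higher in the KO library. The 12 peaks, all intergenic, span 82.9 kb from 127990821 to 128073698, and their summed signal was 1491 WT units and 2118 KO units. The summed change was 0.50 (0.36 to 0.65), and the 12 single changes ran from 0.05 to 1.65. The centring puts the middle of all H3K4me1 peaks at 0. Of the 12, 8 were strong, and 4 of these were at least 1.5-fold higher, against 1.23% of all strong peaks. Those with 71.3, 81.5 and 88.3 WT units had a mean of at least 100 only through their KO values. The count is therefore partly made by the filter. These limits were set after the values were seen, and reads of neighbouring peaks come from the same cells and library.

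The strong peak with the highest change of all 21192 lies in this stretch. At 128055990 to 128060663, centred on an L1M4 LINE fragment, the signal was 81.5 units (24 reads) in the WT and 206 (348 reads) in the KO, a change of 1.32 (0.73 to 1.99). The sixth highest, at 128045571 to 128051118, had 88.3 WT units (26 reads) and 186 KO units, a change of 1.06 (0.49 to 1.71). Both rest on few WT reads and were picked as extremes, so their intervals are too narrow. The peak that ends just before the run, at 128065134 to 128073698, had 231 WT units and 388 KO units, a change of 0.74 (0.38 to 1.12). The strongest of the stretch, at 127990821 to 127999552 and nearest to Bcl2l11, differed less, with 370 WT units and 404 KO units and a change of 0.12 (-0.17 to 0.42).

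Within the Bcl2l11 gene body, 6 peaks summed to 611 WT units and 840 KO units, a change of 0.45 (0.23 to 0.68). Its strongest peak, in an intron at 127958206 to 127968221, had 346 WT units and 519 KO units, a change of 0.57 (0.28 to 0.89). At the start of the gene the values were level: the exon peak at 127953439 to 127955715 had 88.3 WT units and 83.4 KO units, and the peak just upstream, at 127947995 to 127951499, had 204 and 180. The 13 peaks upstream of Bcl2l11, all but 1 of them in introns of Acoxl, an acyl-coenzyme A oxidase-like gene, summed to 1814 WT units and 2087 KO units, a change of 0.19 (0.06 to 0.33). The 9 peaks nearest to the Acoxl start had a change of 0.06 (-0.13 to 0.25).

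On the far side of the run the summed signal was slightly lower in the KO. The 10 peaks beyond it, which the tables annotate to Gm14005, summed to 3842 WT units and 3442 KO units, a change of -0.17 (-0.26 to -0.07). The first and strongest, at 128255870 to 128284838, had 1817 WT units and 1597 KO units, a change of -0.19 (-0.33 to -0.06). The 4 peaks of Anapc1, a subunit of the anaphase-promoting complex, had a change of -0.01 (-0.30 to 0.29), and the 2 of Mertk, a receptor for dying cells, had 0.13 (-0.54 to 0.87).

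**Figure D2:**
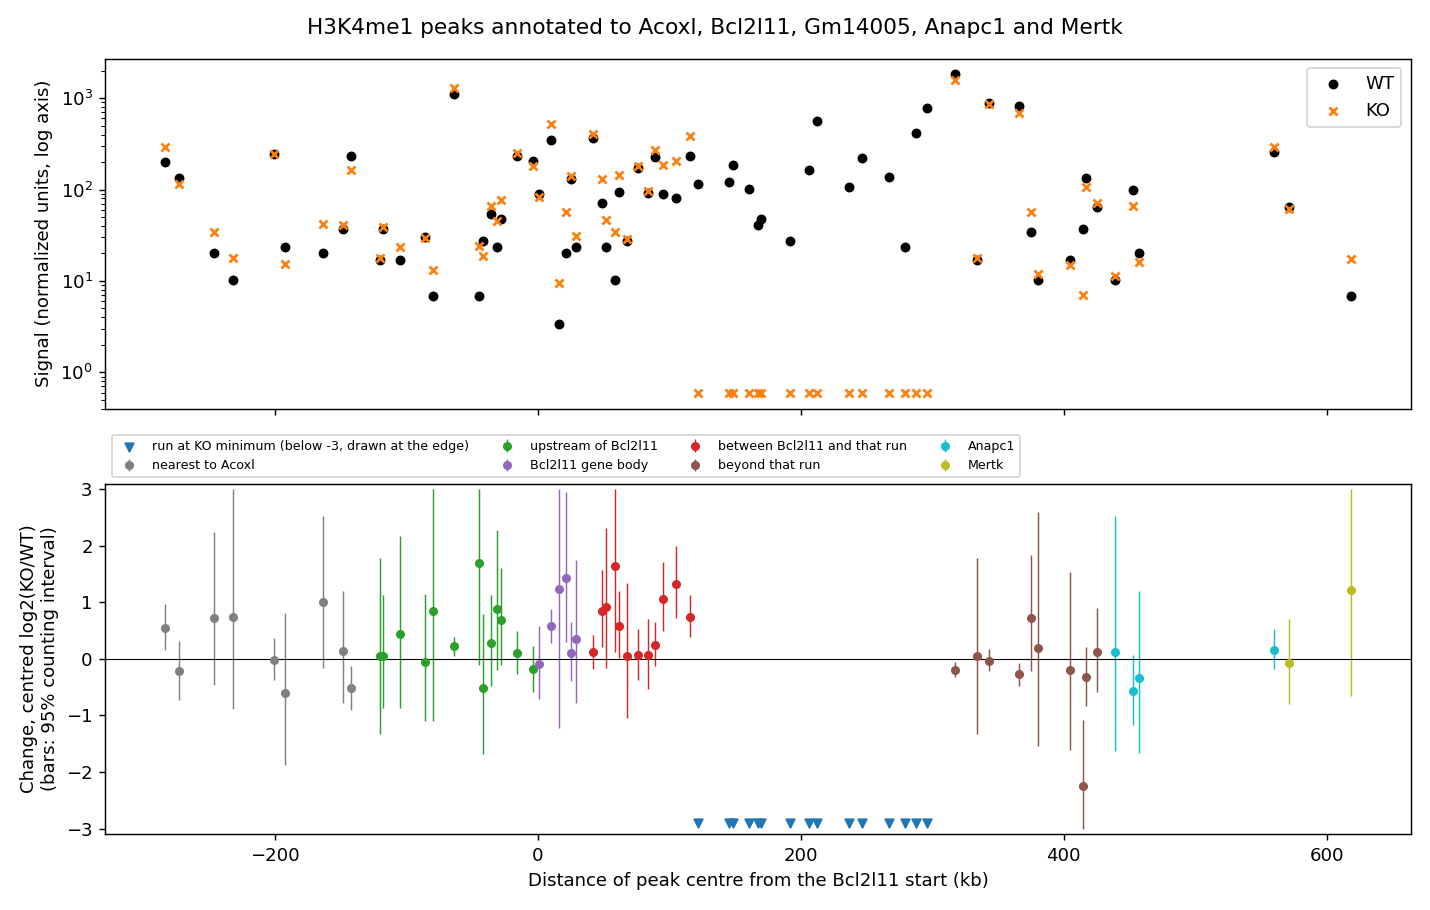
H3K4me1 peaks annotated to Acoxl, Bcl2l11, Gm14005, Anapc1 and Mertk by distance from the Bcl2l11 start in kb: signal in both libraries above (log axis), and centred log2(KO/WT) below, with 95% counting intervals cut at -3 and 3. The 15 peaks at the KO minimum follow a stretch of 12 peaks that are all above 0, with a summed change of 0.50, and the 10 peaks after them have a summed change of -0.17.

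Where other marks had peaks on the same stretch, their tables gave values of the same sign in most cases. Of the 12 H3K4me1 peaks between Bcl2l11 and the run, 11 overlap an H3K27ac peak, and the H3K27ac change was above 0 for 10 of them. All 5 that overlap an H3K4me3 peak and all 6 that overlap an H3K36me3 peak were above 0 in those marks. Among strong H3K4me1 peaks that changed by less than 1.5-fold and overlap a peak of at least 50 units, 59.8% were above 0 in H3K27ac, 65.6% in H3K4me3 and 43.2% in H3K36me3. The 12 peaks were not held to these limits: not all of them are strong, and all 5 H3K4me3 overlaps had a mean below 50 units. The largest H3K4me3 overlap had 32.9 WT units and 59.1 KO units, and the smallest H3K36me3 overlap had 5.37 and 21.5. The same peak of another mark can overlap more than 1 H3K4me1 peak. At the H3K4me1 peak with a change of 1.32, the H3K27ac change was 0.12.

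Away from the Bcl2l11 region, the highest changes of strong peaks rested on few WT reads, as they did within it. Among strong intron peaks, the highest was near Ryr2, a ryanodine receptor calcium channel, with 64.5 units (19 reads) in the WT and 149 in the KO, a change of 1.19 (0.53 to 1.96). Next was Camk2d, a calcium- and calmodulin-dependent kinase subunit, with 84.9 WT units and 187 KO units, a change of 1.12 (0.54 to 1.78). Intron peaks nearest to the starts of Draxin, Itgb6 and Slc13a2os had changes of 0.96, 0.96 and 0.94. Among strong intergenic peaks the highest after Bcl2l11 was near Tiparp, an ADP-ribosyltransferase, with 98.5 WT units and 214 KO units, a change of 1.10 (0.56 to 1.71). Hspb3, Gphb5 and Man2a1 were nearest to peaks with changes of 1.08, 1.02 and just under 2-fold at 0.9965. The 261 strong peaks at least 1.5-fold higher had a median of 27 WT reads and at most 84. They were picked as extremes, so their intervals, made for single peaks, are too narrow for them.

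The highest changes of strong promoter peaks were smaller. The promoter peak nearest to the start of Nelfe, a subunit of the negative elongation factor, was centred 319 bases past that start. It had 78.1 WT units and 138 KO units, a change of 0.81 (0.20 to 1.504). The promoter of Atp5o, a mitochondrial ATP synthase subunit, had 102 WT units and 173 KO units, a change of 0.75 (0.21 to 1.348). The promoter peaks nearest to the starts of Gfm2 (882 bases past it), Spsb4 and Gm6116 followed with 0.72, 0.68 and 0.67. At the lower end, the Gipc3 promoter, of a PDZ-domain protein, had 139 WT units and 72.8 KO units, a change of -0.93 (-1.46 to -0.40). The promoters of Slc25a42, a mitochondrial coenzyme A carrier, and Mus81, a structure-specific endonuclease, had -0.77 and -0.73. The promoter peaks nearest to the starts of Dis3 and Nln had -0.71 and -0.69, that of Nln 714 bases past the start. The annotated promoters at Nelfe, Gfm2 and Nln may therefore be those of neighbouring genes. All 10 of these promoter peaks had fewer than 60 WT reads.

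Of the 5 lowest strong intergenic peaks, 2 are centred on satellite repeats. A peak centred on the major satellite GSAT_MM, nearest to 4933422A05Rik on chromosome 9, had 330 WT units and 58.6 KO units, a change of -2.48 (-2.92 to -2.08). A second GSAT_MM peak, nearest to Mir101c, had 1491 WT units and 367 KO units, a change of -2.03 (-2.21 to -1.85). A peak on chromosome 2 more than 1 Mb from Lrrc4c, its nearest gene, had 2042 WT units and 426 KO units, a change of -2.27 (-2.43 to -2.11). All 3 were lower in the KO in the other marks too, by changes of -1.353 to -1.949 for H3K27ac, -1.69 to -1.92 for H3K4me3 and -0.10 to -0.33 for H3K36me3. The lowest strong intron peak outside the chromosome 2 run, nearest to 4930468A15Rik on the X chromosome, is centred on the satellite SYNREP_MM. It had 149 WT units and 73.4 KO units, a change of -1.02 (-1.54 to -0.50). Reads from satellites cannot be placed at a single copy, so the satellite values belong to the repeat rather than to the named gene. Over all 41 satellite peaks the summed signal was 3234 WT units and 1474 KO units, a ratio of 0.456. The 6 GSAT_MM and 5 SYNREP_MM peaks were all below 0, with ratios of 0.236 and 0.341. The 30 ZP3AR peaks, with 914 WT units and 887 KO units, had a ratio of 0.971, and 11 of them were below 0.

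Other lower strong peaks are not annotated as satellites. An intron peak on chromosome 14 had 363 WT units and 186 KO units, a change of -0.97, just under 2-fold. Its nearest gene start, that of Gm10248, is 247122 bases away. An intron peak of Sod1, the copper and zinc superoxide dismutase, had 139 and 74.0 units, a change of -0.91. That of Prkar1a, a regulatory subunit of protein kinase A, had 214 and 114 units, also -0.91. An intergenic peak near Ly6c2, of the Ly6 family of surface proteins, had 384 WT units and 206 KO units, a change of -0.90 (-1.22 to -0.59). Its centre is a B1 SINE element, and Ly6c2 has close paralogs, so its reads are uncertain. Among the 6348 strong peaks with a mean of at least 300 units, counted after the values were seen and outside the chromosome 2 run, 4 were at least 1.5-fold higher and 9 at least 1.5-fold lower. The 4 higher ones lie near Gca (285.4 WT units and 449 KO units), Rabif (245 and 388), Eea1 (251 and 408) and Bcl2l11. The lower ones include Rn45s, the ribosomal RNA precursor (2979 and 1666), and 3 peaks of the Pisd pseudogenes Pisd-ps2 and Pisd-ps3, which have near-identical copies and are uncertain for that reason. The other 5 are the peaks named for Lrrc4c and Mir101c and 3 peaks of a stretch on chromosome 14.

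That stretch runs from Slc25a37 to Loxl2. Slc25a37 encodes mitoferrin-1, the mitochondrial iron importer that serves heme synthesis. Its 4 peaks summed to 2874 WT units and 1898 KO units, a change of -0.61 (-0.72 to -0.49). The broad intron peak at 69879107 to 69901934 (mm9) had 1702 WT units and 1137 KO units, a change of -0.59 (-0.73 to -0.44). The intergenic peak just upstream, at 69903235 to 69909333, had 849 and 456 units, a change of -0.90 (-1.11 to -0.69). The intron peak farthest into the gene, at 69866534 to 69871452, was level at 197 and 215 units. Toward Loxl2, a lysyl oxidase of the extracellular matrix, the 2 peaks of Gm16677 had a summed change of -0.47 and the 2 of Entpd4, an intracellular nucleotidase, -0.33. The 2 peaks annotated to Loxl2 had 384 WT units and 236 KO units, a change of -0.71 (-1.01 to -0.39), and the 5 inside the Loxl2 body annotated to Mir6950 had 1298 and 730 units, a change of -0.84 (-1.0045 to -0.67). Beyond Loxl2 the intervals all held 0. R3hcc1 had a change of 0.53 (-0.08 to 1.21) and Chmp7 had -0.25 (-0.76 to 0.28). Tnfrsf10b, a death receptor gene, had 635 WT units and 652 KO units, a change of 0.03 (-0.20 to 0.26), and Rhobtb2 had 0.18 (-0.10 to 0.48).

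Most values of the other marks over the same stretch were also below 0. Of its 16 H3K4me1 peaks, from Slc25a37 to Mir6950, 11 overlap an H3K27ac peak and 10 of these were below 0 in H3K27ac. For H3K4me3 this was 6 of 8, with changes from -1.51 to 1.83, and for H3K36me3 6 of 7, from -1.63 to 0.49. The H3K27ac value above 0 and the highest H3K4me3 value both lie at the Slc25a37 peak that starts at 69866534. At the broad Slc25a37 peak the overlapping H3K27ac signal was 1710 WT units and 1280 KO units, a change of -0.42, and the H3K36me3 signal was 1326 and 788, a change of -0.76. At the strongest Mir6950 peak, 70072709 to 70082212, the H3K27ac change was -0.89 and the H3K36me3 change -1.31. For comparison, strong H3K4me1 peaks that changed by less than 1.5-fold, with an overlap of at least 50 units, were taken genome-wide. Of these, 59.8% were above 0 in H3K27ac, 65.6% in H3K4me3 and 43.2% in H3K36me3. Values below 0 were thus already the more common ones for H3K36me3. The peaks of the stretch were not held to these limits, and some of their overlaps are below 50 units. The limits of this stretch were chosen after the values were seen, and each mark is 1 library per genotype.

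**Figure D3:**
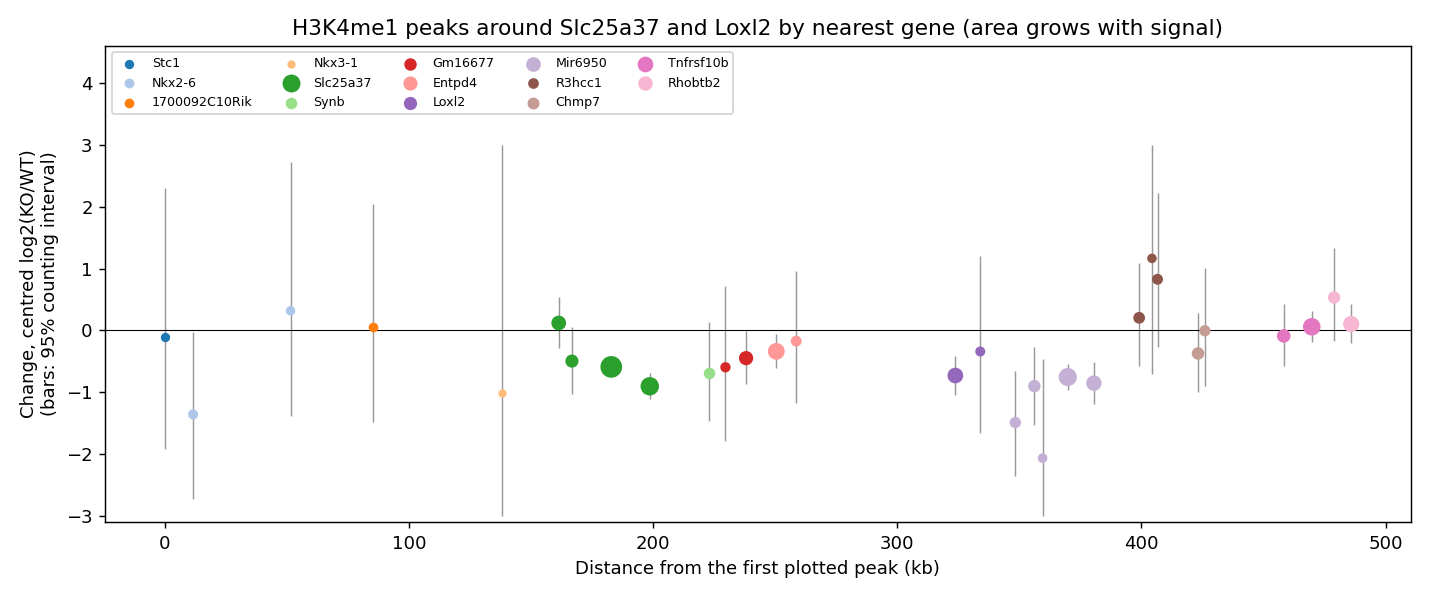
Change of the 30 H3K4me1 peaks around Slc25a37 and Loxl2, as centred log2(KO/WT) with 95% counting intervals cut at -3 and 3, by distance in kb from the first plotted peak. Colours give the annotated gene and the point area grows with the mean signal. From Slc25a37 to Mir6950 all but the first Slc25a37 peak lie below 0, and those of Tnfrsf10b and Rhobtb2 lie near or above it.

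The same peak values were also summed over 100 kb bins, which is not an independent view of them. Of 5271 bins with a summed mean of at least 500 units, 0.019% (1 bin) were at least 1.5-fold higher in the KO and 0.171% (9 bins) at least 1.5-fold lower, and the median bin was at 0.03. The lower bins were 2 of the chromosome 2 run, 2 of the Slc25a37 to Loxl2 stretch, and 1 each at Lrrc4c, Mir101c, Rn45s, Gm10248 and Pisd-ps2. Those of Lrrc4c and Mir101c hold 1 peak each and repeat its value. The higher bin, annotated to Cacna1b, a calcium channel gene, and Pax8, a transcription factor gene, had 431 WT units and 679 KO units, a change of 0.65 (0.38 to 0.92). With the KO reads thinned to the WT total, 0 bins were at least 1.5-fold higher. Broad domains were stable otherwise. Of 3240 strong peaks of at least 10 kb, 0 were at least 1.5-fold higher and 3 at least 1.5-fold lower, at Pisd-ps3, Slc25a37 and Mir101c.

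Most of the strongest peaks of each class differed little between the libraries. The strongest intron peak, a domain of 123 kb in Etv6, a repressor of the ETS family, had 6383 WT units and 6509 KO units, a change of 0.02 (-0.05 to 0.09). Those with Fam49b, Mir1962 and Ostf1 as the nearest gene start had 0.11, 0.08 and -0.07. The peak of 6430706D22Rik had 5384 WT units and 4893 KO units, a change of -0.15 (-0.22 to -0.07). Of the strongest intergenic peaks, the one near Litaf had 4059 WT units and 4104 KO units, a change of 0.01, and that near Nfkbia, the gene of the NF-kB inhibitor I-kappa-B-alpha, had 3000 and 3114 units, a change of 0.05. The one near Zfp217 had 3876 and 4355 units, a change of 0.16 (0.07 to 0.25). Of the strongest promoter peaks, Agps had 2042 and 2060 units (0.01), and Socs3, the suppressor of cytokine signalling that limits G-CSF receptor signals, had 1542 and 1568 units (0.02).

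The slight offset of promoter peaks went along with a gradient with distance to a gene start, and also with peak width. Strong peaks within 1 kb of a start (2732) had a median change of -0.06, and those at 1 to 5 kb (4698) had -0.01. The median was 0.02 at 5 to 20 kb, 0.04 at 20 to 50 kb, 0.04 at 50 to 100 kb and 0.02 beyond 100 kb. The middle 50% of peaks within 1 kb ran from -0.22 to 0.11, so the shift of the median is smaller than the spread of single peaks. Strong peaks centred on a CpG island by the deposited annotation (256) had a median of -0.08, with 2 at least 1.5-fold higher and 9 at least 1.5-fold lower. Peaks in 5' untranslated regions had -0.07 and those in 3' untranslated regions 0.02. By width, strong peaks of 1000 to 3000 bases (3353) had a median of -0.05, against 0.02 for those of 3000 to 10000 bases and 0.02 for wider ones. Distance and width were not separated.

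**Figure D4:**
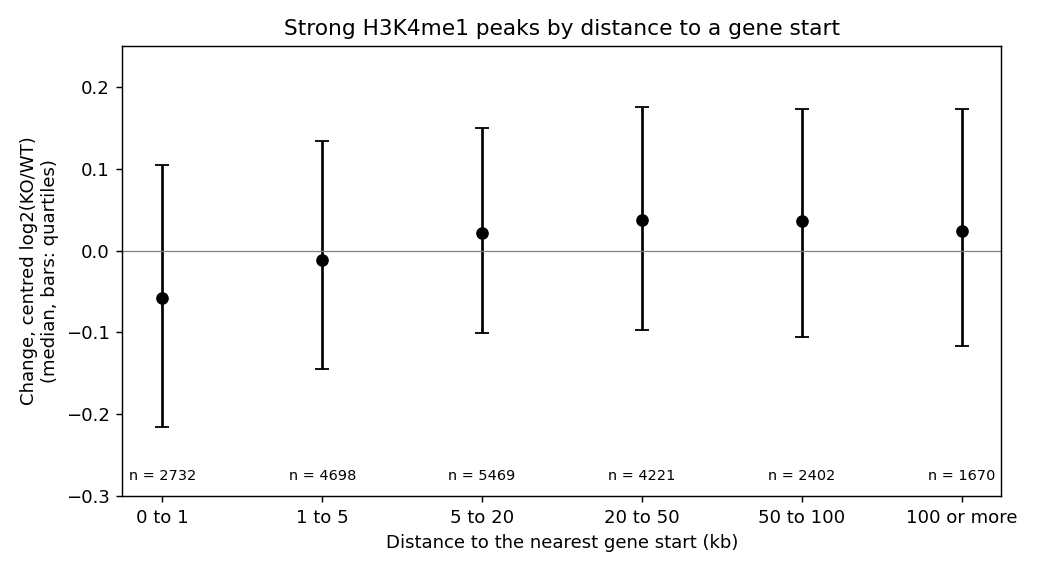
Median change of strong H3K4me1 peaks, as centred log2(KO/WT), by distance to the nearest gene start in kb, with bars from the lower to the upper quartile over peaks and the number of peaks below. The medians go from -0.06 within 1 kb to 0.04 at 20 to 100 kb, while the bars of all distances overlap.

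Nearly all strong H3K4me1 peaks (97.6%) overlap an H3K27ac peak by at least 1 base, the mark of active enhancers and promoters. Their median change was 0.01, and that of the 506 without one was 0.00088. Peaks that overlap an H3K4me3 peak (17160) had a median of 0.01, with 0.892% at least 1.5-fold higher, and the 4032 without had 0.04, with 2.68% higher. The latter had fewer units per kb in the WT, 38.3 against 44.5. At strong H3K4me1 peaks that overlap an H3K27ac peak with a mean of at least 50 units, the H3K27ac change was above 0 for 73.5% of the 162 peaks with H3K4me1 at least 1.5-fold higher, with a median of 0.18. It was above 0 for 40.4% of the 99 with H3K4me1 at least 1.5-fold lower, with a median of -0.08, and for 59.8% of the 17434 in between, with a median of 0.06. For H3K4me3 these medians were 0.07, -0.04 and 0.09, and for H3K36me3 -0.03, -0.13 and -0.02. The quartiles of H3K27ac in the higher and the lower set overlapped.

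Weak peaks gave most of the large ratios, and a single repeat gave most of the lower ones. Over all 81980 peaks, 6.76% were at least 2-fold higher in the KO and 13.5% at least 2-fold lower. Of the lower ones, 81.3% (8975 of 11045) are centred on a simple repeat of the dinucleotide TA, written (TA)n. The table holds 11610 (TA)n peaks, 14.2% of all, of which 8564 are intergenic and 3046 in introns. They are nearly uniform in width, with quartiles of 459 and 464 bases, and 89.4% of them have 1 read in the WT library, against 6.39% of other peaks. In 50.7% of them both libraries have 1 read. A peak with 1 read in each library has a fixed change of -1.47 (-2.52 as deposited) because 1 read is worth more units in the shallower library, so it carries no difference between the genotypes. Of all 6723 peaks with 1 read in both, 87.6% are (TA)n. Only 19 (TA)n peaks are strong, and 0 of them differ by 1.5-fold.

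The (TA)n peaks differ from the other H3K4me1 peaks in how often the other tables list them. Of these, 98.7% overlap an H3K4me3 peak and 98.6% an H3K27ac peak, against 44.1% and 59.1% of other H3K4me1 peaks, and 2.91% overlap an H3K36me3 peak, against 40.8%. They make up 25.9% of the H3K4me3 table and 20.1% of the H3K27ac table, but 0.155% of the H3K36me3 table. In the tables of H3K4me3 and H3K27ac, 94.3% and 88.3% of them also have 1 WT read. Without (TA)n peaks, 714 intron and 1113 intergenic peaks of any strength were at least 2-fold lower, in place of 2809 and 7993.

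**Figure D5:**
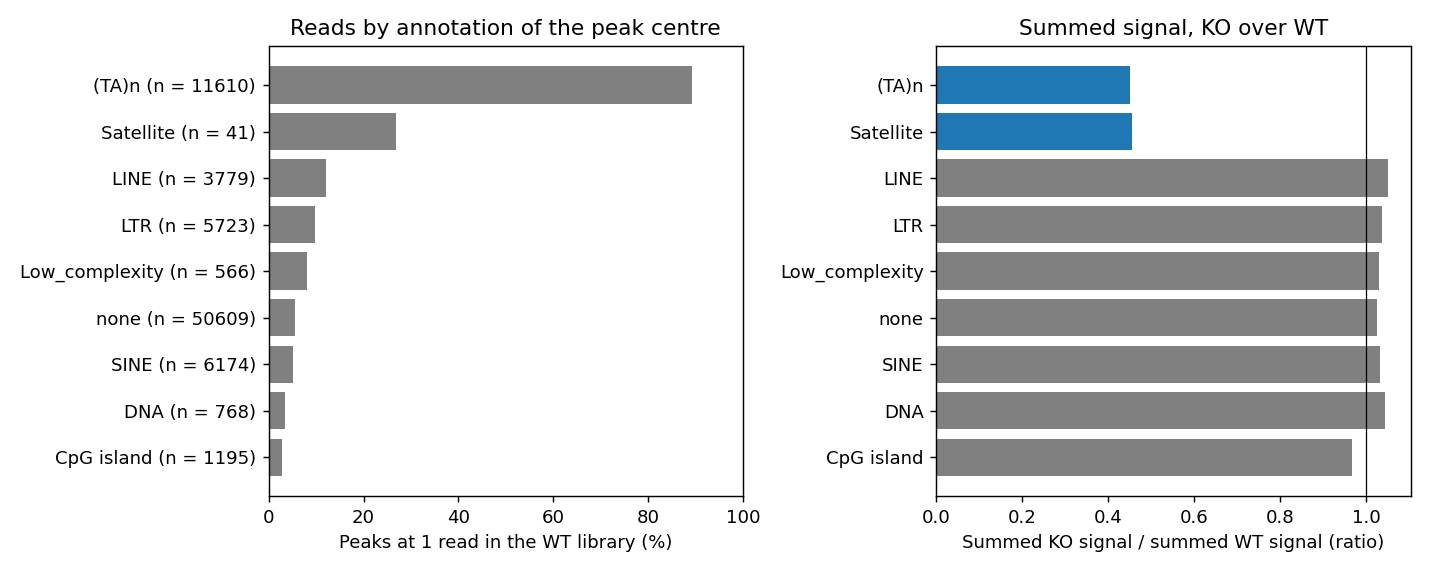
Left, share of H3K4me1 peaks with 1 read in the WT library, by the deposited annotation of the peak centre, with the number of peaks. Right, ratio of summed KO to summed WT signal for the same sets, with a line at 1. (TA)n peaks stand out on the left with 89.4%. On the right, (TA)n and satellite peaks have ratios of 0.451 and 0.456, the latter through GSAT_MM and SYNREP_MM. The other sets there lie between 0.967 and 1.05. These low ratios are not alike. Of the (TA)n peaks, 50.7% hold a single read in WT and in KO alike, which tells nothing about genotype. The satellite sum includes deeper peaks, such as the one near Mir101c with 439 WT and 620 KO reads.

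Genes were scored by the summed signal of their peaks, those in the gene body and those within 50 kb of the start, and 9363 of 18726 genes with at least the median signal are called strong. Of these, 0.128% (12) were at least 1.5-fold higher in the KO and 0.214% (20) at least 1.5-fold lower. Their median change was 0.03, and 58.9% were above 0. Neutrophil granule and lineage genes were level against that background. The 6 measured primary granule genes, such as Mpo, myeloperoxidase (1338 WT units and 1340 KO units), had a median of 0.01, and the 13 strong secondary and tertiary granule genes had 0.02, with 0 past 1.5-fold in either list. Mmp8, the neutrophil collagenase, had 346 WT units and 458 KO units, a change of 0.39 (0.10 to 0.71). The 11 strong lineage transcription factors had a median of 0.07, among them Gfi1, a repressor needed for neutrophil maturation, with 0.14 (0.01 to 0.28), and Cebpa with -0.08 (-0.25 to 0.10).

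Genes of cell death and survival were close to the background too. The 7 strong pro-apoptotic members of the BCL2 family had a median of -0.08, and 3 of 7 were above 0. Bcl2l11 was the highest, with 1648 WT units and 2036 KO units over 15 peaks, a change of 0.30 (0.16 to 0.44), and Bok was the lowest at -0.23 (-0.54 to 0.09). The 5 strong pro-survival members had a median of 0.01, with Mcl1, on which neutrophils depend, level at 1997 and 2010 units (0.0016) and Bcl2l1 at 0.15 (0.03 to 0.27). Bcl2a1a had 258 WT units and 191 KO units, a change of -0.44, but has near-identical copies among which reads may be split. Of the survival cytokine receptors, 7 were strong with a median of -0.01. Csf2rb2, a beta chain of the interleukin-3 receptor, had 425 WT units and 610 KO units, a change of 0.51 (0.25 to 0.79), while its neighbour Csf2rb, the beta chain shared with GM-CSF, had 0.11 (-0.06 to 0.28). The pair are close paralogs, so their split of reads is uncertain.

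Past 1.5-fold, the lists held 1 strong gene in each direction. Among all strong genes 0.128% were higher and 0.214% lower by that fold. Both listed genes come from the list of iron and heme handling, and the lists were chosen with earlier results of these data known. These were Slc25a37 at -0.61 and Steap3, a ferrireductase, with 149 units (44 reads) in the WT and 244 in the KO, a change of 0.70 (0.25 to 1.18). The 11 genes of that list had a median of 0.06. Inflammasome and interleukin-1 genes had a median of -0.04, with Nlrp3, the inflammasome sensor, at 724 WT units and 574 KO units, a change of -0.34 (-0.56 to -0.12). AP-1 genes had -0.04, with Fosb at -0.22 (-0.41 to -0.03). Toll-like receptors and adaptors had a median of 0.04, NF-kB genes 0.05, inducible cytokines and chemokines 0.07, chemoattractant receptors 0.02, NADPH oxidase genes 0.04, adhesion genes 0.01, Fc receptors 0.02 and interferon-stimulated genes 0.07. Of the genes listed for H3K4 mono- and dimethylation, 16 were strong with a median of 0.04. They include subunits that are not enzymes, such as Wdr5, and the H3K27 demethylase Kdm6a. Kdm1b, a demethylase, had 214 WT units and 159 KO units, a change of -0.43 (-0.83 to -0.01), and Kdm5b had 510 and 644 units, a change of 0.33 (0.08 to 0.59). The 9 strong genes of Polycomb repressive complex 2, which writes H3K27 trimethylation, had a median of 0.14, against 0.03 for all strong genes. Of the 9, 8 were above 0, against 58.9% of all strong genes. Only the interval of Eed, the highest at 0.32 (0.04 to 0.62), left out 0.

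The labelled cell type was checked on its markers. The 11 measured neutrophil markers had a median WT signal of 1481 units and a median KO signal of 1468, against 183 and 186 for all genes, and Ly6g had no peak. Markers of monocytes had WT medians of 574 units, of eosinophils 516, of dendritic cells 798 and of platelets 357, while those of mast cells and basophils had 239, of T and NK cells 151, of B cells 144 and of erythroid cells 105. In the KO these were 624, 566, 704, 353, 271, 129, 181 and 121 units. No peak was annotated to Fcer1a and Ms4a2 of mast cells and basophils, Hbb-b1 of erythroid cells or Siglech of dendritic cells. Summed neutrophil markers were 14363 WT units and 14503 KO units, and summed monocyte markers 6944 and 7242. Summed dendritic cell markers were 2979 and 2726, with 3 of the 4 measured genes below 0. The part of other cell types in the changes above was not tested.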

How the data were processed

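H3K4me1 was measured by ChIP-seq in 2 libraries, 1 WT and 1 KO. The submitters' processing notes name build mm9 and, in no stated order, MACS2 2.1.0, HOMER, Bowtie2 2.2.3, R 3.1.1, DiffBind, Trimmomatic 0.32 and bcl2fastq 2.16.0. Settings and any subtraction of input are not given in the sources used here. The authors deposited a consensus peak table with a normalized read signal per library and a log2 fold that equals log2(KO/WT) of the signal. All values (100%) were whole multiples of 1 read within 0.01 of a read, so reads were recovered. No value lies below 1 read, so 0 and 1 read cannot be told apart. Coordinates are mm9, as deposited.

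The change used a pseudocount of 1, which understates changes of weak peaks, and was centred on its median over all H3K4me1 peaks. Strong peaks have a mean of at least 100, which is about 30 WT reads. Gene values sum peaks in the gene body or within 50 kb of the start. With 1 library per group no count model could be fitted. Folds against KO minima were set against 3 KO reads and leave out the counting error of the WT reads. The steps were tested on simulated reads. Named peaks are, per class, the 5 highest, 5 lowest and 5 strongest, at most 1 per gene, all peaks from Acoxl to Mertk, and the extreme members of each gene list; not every one is reported here. The members and lists were chosen with earlier results of these data known. Alternatives covered the pseudocount, centring, depth, minimum mean, class rule, overlap, gene window and bin size. The 2 input libraries were not analysed here. The work was done with pandas 2.3.3, numpy 2.4.6 and scipy 1.17.1 under Python 3.11.15, and plots with matplotlib 3.10.9.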

Additional observations from a re-analysis of the deposited data

How the results depend on the processing

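Ratios are limited by the WT library, whose reads are 5.87-fold fewer, and every difference compares these 2 libraries only. No paired analysis was possible because each genotype has 1 library. No value taken as 2-fold or 1.5-fold turned its direction under any alternative run. The summed changes by segment around Bcl2l11 moved by less than their counting intervals in all 21 recomputations. Of the recomputed changes of named peaks 180 stayed within their counting intervals and 4 did not, and of named genes 565 did and 20 did not. Of gene list medians 154 stayed within the interval over their members and 14 did not. The medians of intron and intergenic peaks are so close to 0 that their sign depends on the settings.

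The median change of strong intron, intergenic and H3K27ac-overlapping peaks was 0.023, 0.026 and 0.019 without centring, and 0.0039, 0.0066 and 0 with a running median. With the KO reads thinned to the WT total these medians were -0.0033, 0.0073 and -0.0098, and the promoter median was -0.077. Thinning gave 11 intron peaks at least 2-fold higher and 26 lower, 18 intergenic and 4 promoter peaks lower, and 0 bins at least 1.5-fold higher. A pseudocount of 10 left 3 intergenic peaks at least 2-fold higher. With a minimum mean of 50, the intron, intergenic and H3K27ac medians were 0.026, 0.026 and 0.019. The peaks at least 2-fold higher and lower then numbered 40 and 26 (intron), 55 and 17 (intergenic) and 3 and 5 (promoter). With a minimum of 200, 0 intron and 0 intergenic peaks were higher, 3 intron peaks were lower and the promoter median was -0.017. Classes by distance gave an intron median of 0.021.

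With no minimum, the intron, intergenic and promoter medians were 0.044, -0.062 and -0.024, and those with and without an H3K27ac peak -0.066 and 0.21. The higher and lower peaks then numbered 2605 and 2809 (intron), 2414 and 7993 (intergenic) and 160 and 107 (promoter). Leaving out (TA)n peaks as well, chosen after seeing the data, these medians were 0.078, 0.083, -0.024, 0.026 and 0.21. The counts were 2601 and 714, 2411 and 1113, and 160 and 107. Most of the lower weak peaks are at 1 WT read, where the ratio is fixed by depth.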
